A study of Mus musculus with 6 samples.

Results

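Imprinted genes are expressed mainly from the allele of one parent. The 38 genes described here are classical mouse imprinted genes from 19 clusters. They were listed by name, and for each of them the peaks of H3K4me3 and of ASH2L that overlapped a promoter were collected. A promoter reached from 1000 bp upstream to 100 bp downstream of each transcript start in GENCODE vM21, and an overlap of 1 bp was enough. The 38 genes stand among 55450 GENCODE genes, of which 21951 are protein-coding and 10155 are long noncoding RNAs. Of the 38, 31 are protein-coding and 7 are noncoding.

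CUT&RUN was used to map H3K4me3 and HA-ASH2L in E14, a line of mouse embryonic stem cells (ESCs) kept with serum and LIF. ASH2L is a core subunit of the MLL/SET1 enzymes that methylate histone H3 at lysine 4. There were 6 samples in 3 groups of 2: HA-Ash2L E14 cells with an antibody to H3K4me3, the same cells with an antibody to HA, and parental E14 cells with the antibody to HA. All 3 groups were grown with doxycycline for 48 h, which switches on the HA-Ash2L transgene, and no list of the parental group was analysed here. The labels call the genotype a knock-in, whereas the methods describe HA-ASH2L expressed from a transposon vector and single colonies picked for its expression, and the ASH2L list shows the tagged protein alone. A peak list from the merged duplicates was used for H3K4me3 and for ASH2L, with 59927 and 2464 peaks from 27328071 and 25677963 tags. Because the duplicates were merged, no value below has a spread between samples, and no difference was tested; 95% Wilson intervals cover counting error only.

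In an imprinted cluster, DNA methylation that is set in the egg or in the sperm stays on one allele in the embryo. Most of these primary imprints are acquired in the egg and lie on a promoter, often that of a long noncoding RNA, which is then active on the paternal allele. A few are acquired in sperm and lie between genes, as at H19-Igf2 and Dlk1-Meg3. The protein ZFP57 binds the methylated hexamer TGCCGC and keeps imprints in place during early development. H3K4me3 is generally found where CpG-rich DNA is not methylated, and imprinted control regions in ESCs are known for H3K4me3 on the allele that is not methylated. The peak lists do not separate the alleles.

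The labelled cell type was checked against promoters of marker genes. H3K4me3 peaks were found at 3 of 8 stem cell markers, Zfp42, Esrrb and Klf4, and not at Pou5f1, Sox2, Nanog, Tdgf1 or Dppa5a. They were also found at 3 of 6 markers of differentiated cells, namely Afp, Cd3e and Krt14. Of 4 housekeeping genes, chosen after the data were seen, Actb had a peak and Gapdh, Hprt and Rpl13a had none. The H3K4me3 list therefore lacks promoters that ESCs are known to use, and a gene without a peak below is a gene without a peak in this list, not one shown to lack the mark. The caller estimated its background from the same library, with a regional window of 10000 bp. The median fold enrichment in the list was 6.84 for peaks narrower than 2000 bp and 3.99 for those of 5000 bp or more, and the part of peak width in missing peaks was not tested.

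Peaks with many copies of the ZFP57 hexamer are shown first, because primary imprints are known for it. The hexamer was searched as TGCCGC on both strands, so that its reverse complement GCGGCA also counts. The H3K4me3 peaks with the most hexamers per kb of peak were those of Snrpn with 10 in 2737 bp, Airn with 8 in 2421 bp, Nnat with 8 in 3119 bp and Mest with 12 in 6183 bp. From each, the 240 bases with the most hexamers outside annotated UTRs are given on the strand of the gene, from GRCm38.p6 (mm10), with the hexamer in capitals. They lie at chr7:60004321-60004560 on the minus strand in an intron of Snrpn, at chr17:12742169-12742408 on the plus strand in an intron of Airn, at chr2:157560263-157560502 on the plus strand in an exon of a transcript of Nnat, where 55 of the bases are coding, and at chr6:30737590-30737829 on the plus strand in an intron of Mest. Each stretch held 3 hexamers.
Snrpn: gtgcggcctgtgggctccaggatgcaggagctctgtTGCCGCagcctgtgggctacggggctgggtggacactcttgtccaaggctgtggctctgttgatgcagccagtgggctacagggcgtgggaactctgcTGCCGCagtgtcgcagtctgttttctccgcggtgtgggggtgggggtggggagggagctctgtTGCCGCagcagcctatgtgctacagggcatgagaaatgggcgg
Airn: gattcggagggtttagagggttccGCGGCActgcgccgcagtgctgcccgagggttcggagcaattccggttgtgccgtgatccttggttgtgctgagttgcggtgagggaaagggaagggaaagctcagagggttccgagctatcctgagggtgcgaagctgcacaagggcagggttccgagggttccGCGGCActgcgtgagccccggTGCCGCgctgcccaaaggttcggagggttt
Nnat: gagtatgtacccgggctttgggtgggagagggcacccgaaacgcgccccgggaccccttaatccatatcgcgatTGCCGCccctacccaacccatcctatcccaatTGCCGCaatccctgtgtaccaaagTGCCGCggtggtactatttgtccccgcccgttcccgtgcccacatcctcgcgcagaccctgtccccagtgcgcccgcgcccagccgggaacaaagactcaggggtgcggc
Mest: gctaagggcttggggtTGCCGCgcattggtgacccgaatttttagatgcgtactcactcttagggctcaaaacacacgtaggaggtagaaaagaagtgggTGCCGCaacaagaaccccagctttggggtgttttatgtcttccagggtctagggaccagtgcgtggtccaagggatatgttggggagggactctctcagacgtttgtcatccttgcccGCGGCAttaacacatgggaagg

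H3K4me3 was present at a promoter of 33 of the 38 imprinted genes (86.8%, interval 72.7% to 94.2%), and 18 of the 19 clusters had at least 1 such gene. Among the protein-coding imprinted genes, 29 of 31 had a peak (93.5%, interval 79.3% to 98.2%), against 68.4% of all protein-coding genes. With only peaks at or above the median fold enrichment of the list, the share was 35.5% (interval 21.1% to 53.1%) against 36.4%, and with peaks at or above the median score it was 83.9% (interval 67.4% to 92.9%) against 61.6%. The 38 imprinted genes, with the 7 noncoding ones included, are annotated with a median of 5.5 transcripts, against 3 for protein-coding genes. Among protein-coding genes with 5 or more transcripts, 17 of 17 imprinted genes had H3K4me3 (interval 81.6% to 100%), against 89.7% of all, so that the background lies within the interval. Of the 7 noncoding imprinted genes, 4 had H3K4me3 (57.1%, interval 25% to 84.2%), against 33.2% of long noncoding RNA genes, which again is within the interval.

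By the allele that is known to be expressed, 20 of 23 paternally expressed genes, 8 of 10 maternally expressed genes and 5 of 5 genes with transcripts from either allele had a peak. By the primary imprint, 17 of 18 genes with a maternally methylated imprint at their own promoter had H3K4me3, as did 11 of 12 genes without an imprint of their own and 5 of 8 genes of clusters with an imprint between genes that is methylated on the paternal allele. The lower share of the last class came from H19, Rtl1 and Mirg. Zdbf2 was also placed in that class, and this placing is uncertain. In these counts a peak at any promoter of the gene was enough, which need not be the imprinted one. Plagl1, for example, counted through a start of 1 transcript, and its promoter with 22 transcripts had no peak. The classes are small, and their Wilson intervals overlap.

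**Figure D1:**
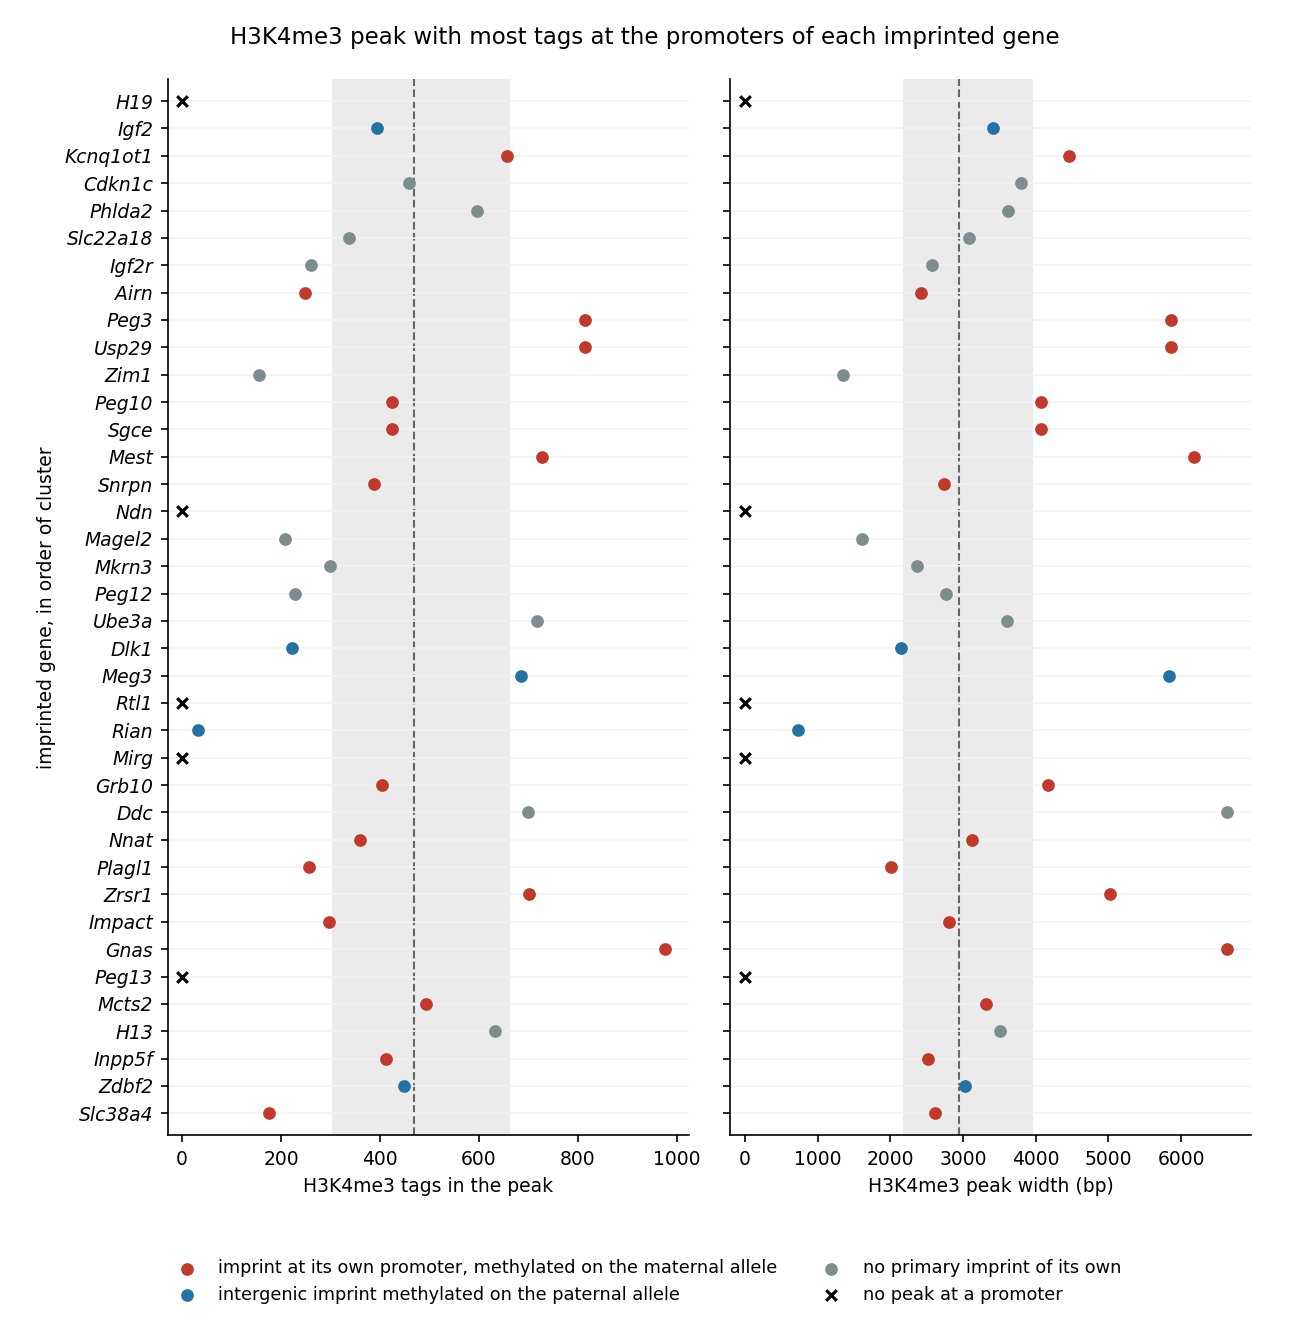
H3K4me3 tags (left) and peak width in bp (right) of the peak with most tags at the promoters of each of 38 imprinted genes, coloured by the kind of primary imprint; the dashed line is the median of 15016 protein-coding genes with a peak, the grey band their middle range from the first to the third quartile, and a cross marks a gene with no peak, for which no tag number exists. Gnas is highest with 975 tags and Rian lowest with 33.

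Per kb, most peaks at the 33 genes had fewer tags than the median protein-coding gene. For each gene, the overlapping peak with most tags was taken, which gave 31 distinct peaks, because Peg3 and Usp29 share one and Peg10 and Sgce share another. The median was 412 tags (range 33 to 975), against 469 for protein-coding genes, and 12 of 33 genes were above that. The median width was 3321 bp (range 738 to 6635 bp), against 2943 bp, and 20 of 33 were above. Per kb of peak, the median was 118 tags (range 44.7 to 199), against 154, and only Ube3a, H13, Phlda2 and Inpp5f were above the median of protein-coding genes. The fold enrichment was also lower, with a median of 5.28 against 6.38 and 9 of 33 genes above.

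Since tag density and fold enrichment change with width, both were also read within width bands of protein-coding genes. In the band from 2000 to 3000 bp, 10 imprinted genes had a median of 104 tags per kb against 156, and between 3000 and 4000 bp 9 had 148 against 168. From 4000 to 5000 bp, 4 had 104 against 166, and in peaks of 5000 bp or more 7 had 139 against 160. Below 2000 bp, 3 had 115 against 104. Thus, in 4 of 5 bands the imprinted genes had the lower median, and 5 of 33 genes exceeded the median of their band. The median fold enrichment was 7.30 against 7.47 from 2000 to 3000 bp, 5.28 against 5.92 from 3000 to 4000 bp and 4.0 against 4.04 in the widest band, and 8 of 33 genes were above their band. By the class of imprint, tags per kb had a median of 127 in the 15 distinct peaks of genes with an imprint at their own promoter, 121 in 11 without one and 115 in 5 of the intergenic class. Whether the density has to do with the mark being on 1 allele was not tested.

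**Figure D2:**
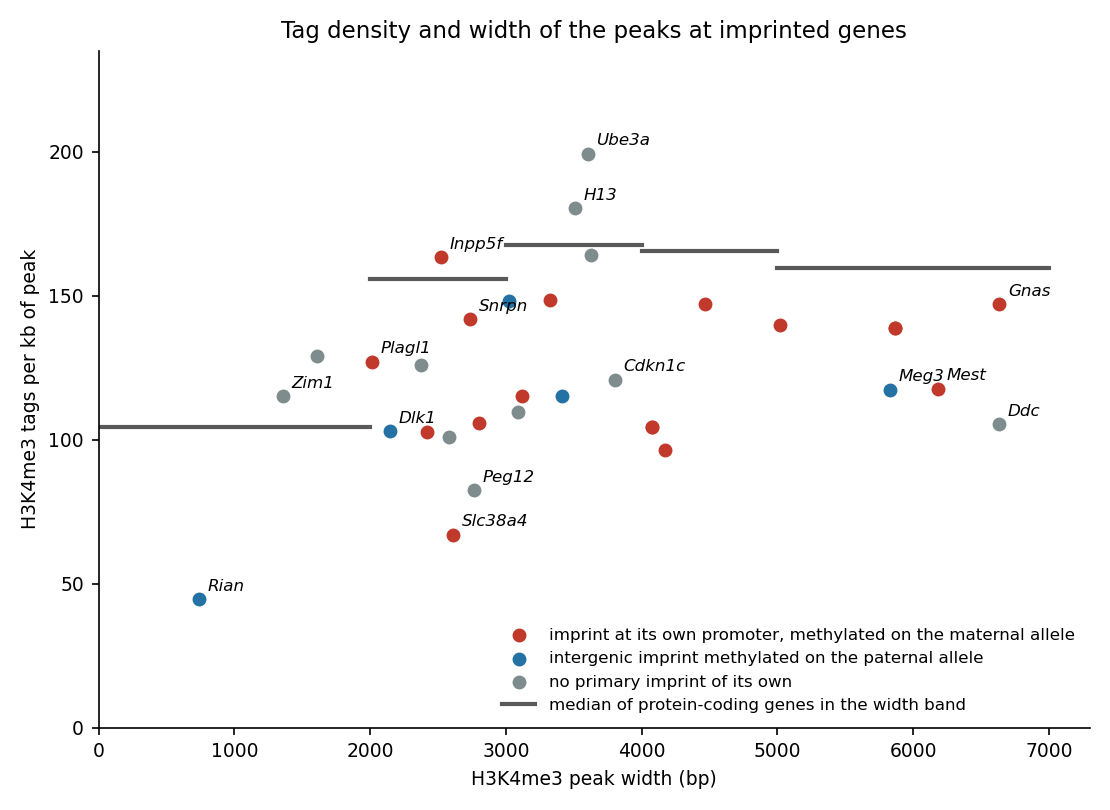
H3K4me3 tags per kb of peak against peak width in bp for the 33 imprinted genes with a peak, coloured by the kind of primary imprint, with the median of protein-coding genes in 5 width bands as horizontal lines. 5 of the 33 points are above the line of their band.

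The widths of the classes of imprint overlapped. With each peak counted once, the median width was 3321 bp in 15 peaks of genes with a maternally methylated imprint at a promoter of their own (range 2015 to 6635 bp), 3085 bp in 11 peaks of genes without one (1355 to 6633 bp) and 3022 bp in 5 of the intergenic class (738 to 5829 bp), so that the ranges overlap over most of their length. Of the 33 genes, 7 had a peak of 5000 bp or more (21.2%, interval 10.7% to 37.8%), and 12.5% of protein-coding genes with a peak did, which lies within the interval. These were Gnas, Ddc, Mest, Peg3 and Usp29 with the same peak, Meg3 and Zrsr1.

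Kcnq1ot1, the long noncoding RNA that silences the Kcnq1 cluster in cis, has its imprint on its only promoter. Its peak was 4466 bp wide, with 657 tags and a fold enrichment of 4.36. The peak at the shared promoter of Peg3, a zinc finger protein gene, and Usp29, a ubiquitin protease gene read in the opposite direction, was 5868 bp wide with 815 tags. At Peg10, a gene derived from a retrotransposon and required for the placenta, and Sgce, which encodes epsilon-sarcoglycan, a single peak of 4072 bp with 425 tags covered both starts. Both pairs of opposite starts were thus under 1 continuous peak.

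Mest, which encodes a hydrolase-like protein, had a peak of 6183 bp with 728 tags at the start with most transcripts and a narrower one of 1599 bp with 150 tags at another start upstream of it. The fold enrichment of the former, 3.20, was the lowest among the peaks with most tags of the 33 genes. Airn, the noncoding RNA that overlaps and silences Igf2r, had 249 tags in 2421 bp. Igf2r, which clears IGF2 from the cell surface, had 260 tags in 2577 bp, so that both promoters of this pair, of which each is known to be used on the opposite allele in many tissues, had a similar number of tags.

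Some imprinted genes lie within another gene. Nnat, which encodes neuronatin and lies in an intron of Blcap, had 359 tags in 3119 bp, in a peak that also overlapped a promoter of Blcap. Zrsr1, a retrogene within Commd1 that encodes a splicing factor relative, had 702 tags in 5022 bp, and this peak also touched a start of Commd1. Mcts2, a retrogene within H13, had 493 tags in 3321 bp, and the promoter of H13 itself, a signal peptide peptidase gene, had 633 tags. H13 also had the largest peak away from every annotated promoter over any of the 38 genes, with 902 tags. Over all 38 genes, 36 of 79 distinct H3K4me3 peaks lay off every annotated promoter (45.6%, interval 35.0% to 56.5%), and over all protein-coding genes 53.6% did, which lies within the interval.

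Slc38a4, an amino acid transporter gene, counted only through a peak of 175 tags that ended in the promoter window and was 985 bp from the start itself. A peak of 580 tags and 3897 bp lay 1921 bp from its most upstream start and was outside the window. Impact, a regulator of translation, had 297 tags in 2804 bp over 2 neighbouring promoters, and a start 16071 bp upstream of them had a narrow peak with 164 tags and a fold enrichment of 16.57. Peg13, a noncoding RNA within Trappc9, had no peak, and the nearest was 15849 bp away.

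The maternally expressed genes of the Kcnq1 cluster had H3K4me3 as well. Cdkn1c, which encodes the cell cycle inhibitor p57, had 459 tags in 3800 bp at all 3 of its promoters. Phlda2, which restrains growth of the placenta, had 595 tags in 3627 bp, and Slc22a18, a transporter gene, had 338 tags in 3085 bp. Between Cdkn1c and Slc22a18, another peak of 3445 bp with 299 tags overlapped no annotated promoter. In the Peg3 cluster, Zim1, a maternally expressed zinc finger gene, had a narrow peak of 1355 bp with 156 tags, whose fold enrichment of 15.77 was the highest among the peaks with most tags of the 33 genes.

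In the Prader-Willi and Angelman region, Ube3a, the ubiquitin ligase gene that is expressed from the maternal allele in neurons and from both alleles in most other cells, had 718 tags and the highest density of the 33 genes, at 199 tags per kb. The paternally expressed genes had less. Snrpn, which encodes a spliceosomal protein, had 388 tags, Mkrn3, a makorin ring finger gene, 299, Peg12, a gene of the GSK3-binding FRAT family, 228 and Magel2, a MAGE family gene, 208. Ndn, which encodes necdin, was not counted, because its annotated GENCODE start was 1457 bp from the nearest peak. The RefSeq start of Ndn lies 1708 bp from the GENCODE start, at 62348277 on chromosome 7, and is inside that peak, which had 141 tags in 1382 bp and a fold enrichment of 12.82. Ndn therefore depended on which annotation was used.

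In the Dlk1-Meg3 cluster, the noncoding RNA Meg3 had 684 tags in a peak of 5829 bp and a fold enrichment of 3.74. Dlk1, a Notch ligand relative that inhibits adipocyte differentiation, had 221 tags in 2145 bp and a further peak of 92 tags at a start 7020 bp downstream. Rian, a host of small nucleolar RNAs, was counted through a peak of 33 tags at 1 of its 10 promoters, the smallest among the 33 genes. Mirg, a host of microRNAs, had no peak at any of 7 promoters, and the nearest was 1516 bp away. Rtl1, a retrotransposon-derived gene needed for placental capillaries, was 11853 bp from the nearest peak. Meg3, Rian and Mirg are often described as 1 long maternal transcript, and only the start of Meg3 had a large peak.

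In the H19-Igf2 cluster, the growth factor gene Igf2 had H3K4me3 and H19 had no peak. H19, a maternally expressed noncoding RNA, was 26504 bp from the nearest peak. The interval from H19 to Igf2, 72622 bp long, held 2 peaks, with 187 tags in 1832 bp and 72 tags in 1255 bp, neither at a promoter. The interval from Dlk1 to Meg3, 77664 bp long, held 1 peak with 74 tags. A further peak of 43 tags lay between Magel2 and Mkrn3. No peak was found between Meg3 and Rian, between Rian and Mirg, between Ndn and Magel2, or between Mkrn3 and Peg12, and ASH2L had none in any of these intervals.

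Alternative promoters are a feature of imprinted genes, since an imprint can silence one start and leave another active. Starts of a gene within 500 bp of each other were joined, and in this way 28 of the 38 genes had 2 or more promoters. H3K4me3 overlapped 60 of 132 promoters (45.5%, interval 37.2% to 54.0%), and 54 of 103 of the protein-coding ones (52.4%, interval 42.9% to 61.8%), against 43% of all promoters of protein-coding genes, so that the background lies just at the lower end of that interval. With peaks at or above the median fold enrichment the order turned, to 12.6% against 19.3%, and at or above the median score the shares were 40.8% and 35.7%. The promoter with most transcripts had a peak in 28 of 38 genes (73.7%, interval 58% to 85.0%). Among the protein-coding ones it was 25 of 31 (80.6%, interval 63.7% to 90.8%), against 64% of all protein-coding genes, at the lower end of the interval. Of the 28 genes with several promoters, 21 had some with and some without a peak, 5 had a peak at all and 2, H19 and Mirg, at none. How many of all protein-coding genes have such a mixture was not counted, so the 21 have no background beside them. Of the 10 genes with 1 promoter, 7 had a peak.

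**Figure D3:**
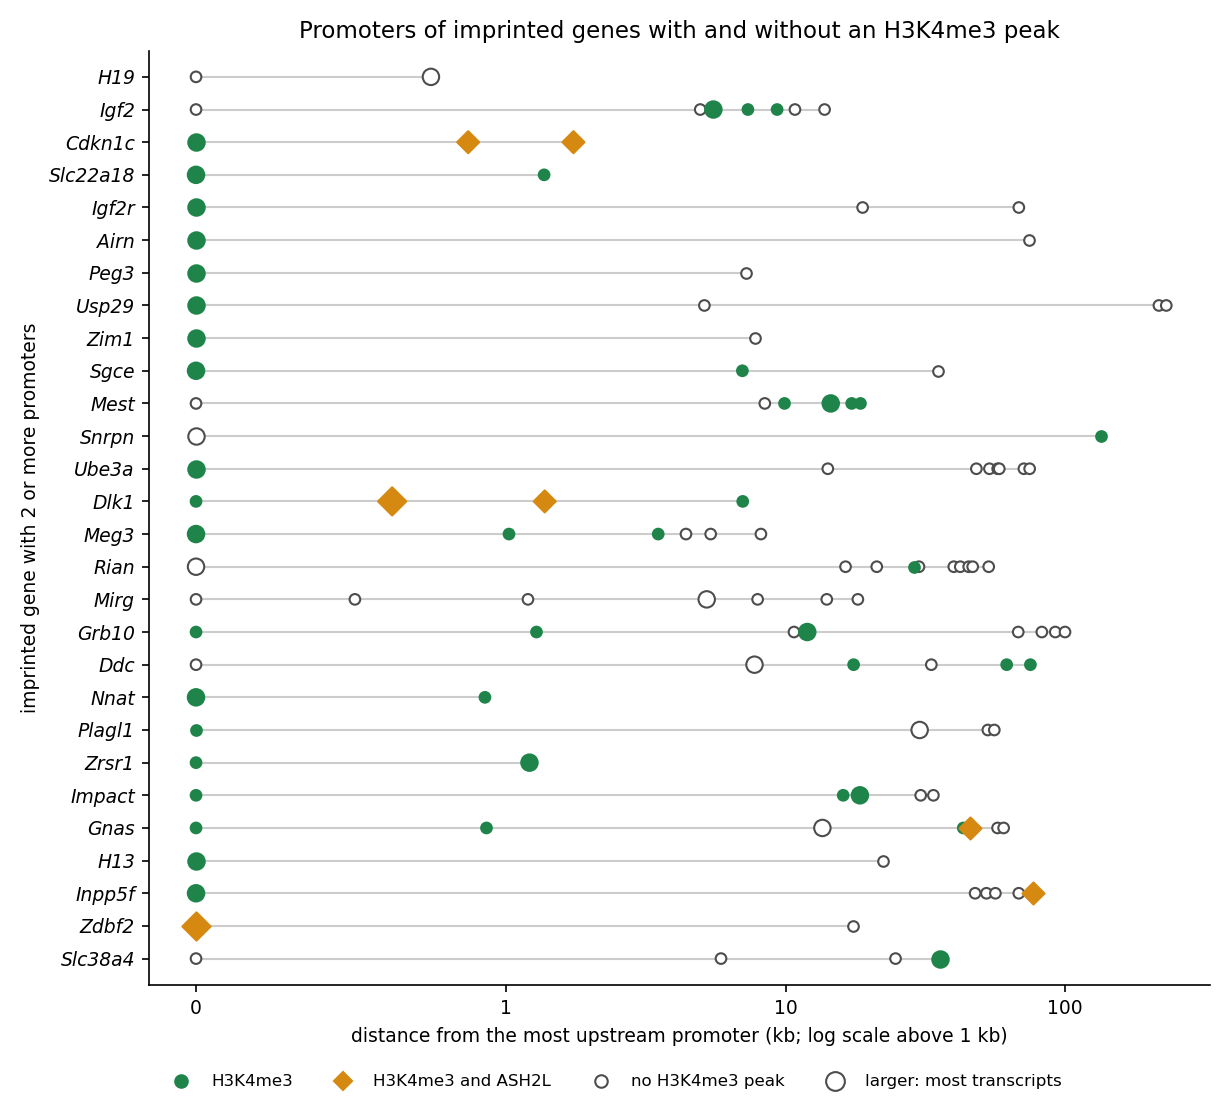
Promoters of the 28 imprinted genes with 2 or more of them, by distance in kb from the most upstream one (linear up to 1 kb, then a log scale); filled circles have an H3K4me3 peak, diamonds an ASH2L peak as well, and open circles neither, with larger symbols for the promoter with most transcripts or the upstream one of a tie. In 21 genes, both kinds of promoter occur.

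Gnas is the most intricate of these loci, with promoters for Nesp, for the large XL form, for exon 1A and for the G protein subunit itself in that order. The first promoter and the next one 936 bp downstream lay in a peak of 6635 bp with 975 tags, which also covered the antisense RNA Nespas. The promoter 13539 bp downstream, with 7 transcripts the most of any, was 8112 bp from the nearest peak. The promoters at 43250 and 45686 bp shared a peak of 5990 bp with 855 tags, and the latter also had ASH2L. Starts further downstream, with 1 transcript each, had no peak. Hence the promoter of the XL form was without a peak between marked promoters on both sides.

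At Plagl1, a zinc finger gene that restrains cell growth, the pattern ran against the annotation. Its promoter with 22 of 25 transcripts is CpG-rich, with an observed to expected CpG ratio of 0.70, and the nearest peak was 15651 bp away. The only promoter with H3K4me3 was that of a single transcript 30187 bp upstream of it, with 256 tags and a fold enrichment of 9.37. Further peaks over the gene, with 206, 120 and 29 tags, lay off every annotated promoter. Ddc, which encodes an enzyme of dopamine and serotonin synthesis, was similar, since its upstream promoter and the one with most transcripts, 4, had no peak, and 3 starts further downstream had 699, 214 and 461 tags.

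Inpp5f, a phosphatase gene, had 412 tags at its upstream promoter, and a peak of 275 tags at 2 promoters 76218 and 77161 bp downstream. The latter pair is where the paternally expressed short variant starts within an intron. The 4 starts in between, with 1 transcript each, had no peak. Grb10, which encodes an adaptor that dampens insulin signalling, had 403 tags in 4172 bp over its 2 upstream promoters and a peak of 62 tags at a promoter 11951 bp downstream. Further peaks of up to 329 tags lay within Grb10 off every promoter.

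At Igf2, 3 of 7 promoters had H3K4me3, all from a peak of 3416 bp with 394 tags that lay 5370 to 8785 bp downstream of the most upstream start. This peak overlapped the antisense RNA Igf2os too. The upstream start, known for placental use, was 5370 bp from the nearest peak. At Snrpn, the peak of 388 tags lay at the lower promoter, 135108 bp downstream of a start that was 134679 bp from the nearest peak, and the other upstream starts in RefSeq had no peak either. Snurf, read from the same start, shared the peak.

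**Figure D4:**
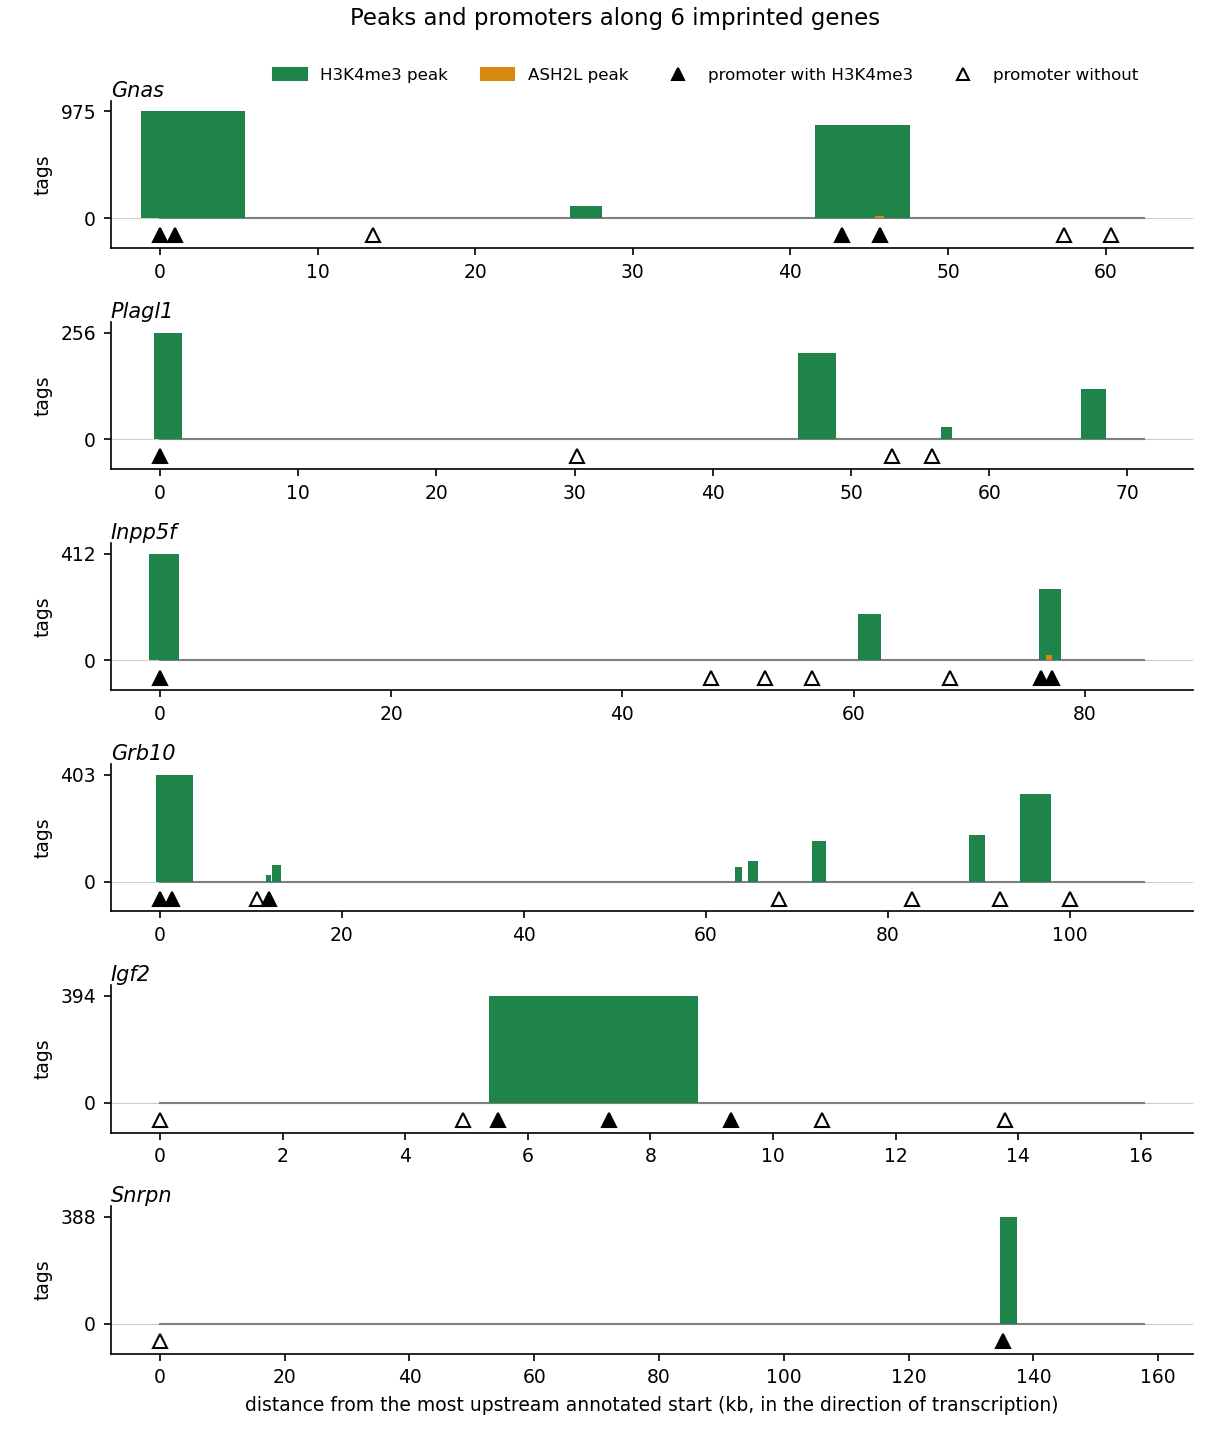
H3K4me3 peaks (green) and ASH2L peaks (orange) along 6 imprinted genes, with peak extent in kb from the most upstream start and height as the number of tags on a scale of its own for each gene; filled triangles are promoters with an H3K4me3 peak and open triangles those without. At Gnas and Snrpn the promoters between or upstream of the peaks are open.

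How close the window came to deciding these counts was read from the unmarked promoters. Of 72, 19 in 12 genes had a peak within 2500 bp. The nearest miss was a single-transcript start of Usp29, 114 bp from a peak of 88 tags, followed by starts of Igf2 at 424 bp and of Mest at 428 bp. Just inside, the promoters of Slc38a4 at 985 bp, of Mest at 939 bp and of Igf2 at 535 bp were among those counted without the start itself being in the peak.

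ASH2L peaks were found at 5 of the 38 genes, Cdkn1c, Dlk1, Gnas, Inpp5f and Zdbf2 (13.2%, interval 5.75% to 27.3%). All are protein-coding, so that 5 of 31 had ASH2L (16.1%, interval 7.09% to 32.6%), against 7.69% of protein-coding genes. Among genes with H3K4me3, the counts were 5 of 29 (17.2%, interval 7.60% to 34.5%), against 10.9%. Both backgrounds are within the intervals. None of the 7 noncoding genes had ASH2L, for which the interval reaches 35.4%, and the share over all long noncoding RNA genes was not read. All 5 ASH2L peaks lay wholly inside an H3K4me3 peak. By the looser measure of a peak of each at a promoter, 1642 of 1687 protein-coding genes with ASH2L also had H3K4me3.

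All 5 peaks had a low fold enrichment for the ASH2L list, but 3 of them had more tags than its median. Dlk1 had 43 tags, Cdkn1c 36, Zdbf2 34, Gnas 24 and Inpp5f 22, with a median of 32 tags in the ASH2L list. The fold enrichments, from 4.03 at Cdkn1c to 5.14 at Inpp5f, were all below the list median of 5.37. The scores ranged from 50.15 at Gnas, next to the calling threshold of 50, to 79.96 at Dlk1, and only Dlk1 and Zdbf2 exceeded the list median of 61.53. The score is the negative log10 of the caller's p-value times 10.

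Where several promoters of a gene had H3K4me3, ASH2L was at a part of them. At Inpp5f it was at the intronic promoter and not at the upstream one, although the latter had more H3K4me3. At Gnas it was at the promoter of the G protein subunit and not at the wider peak of Nesp. At Cdkn1c it was at the downstream starts, which have no transcript in the basic set of GENCODE, and not at the upstream one. At Dlk1 it was at the promoter with most transcripts and the next. Zdbf2, a paternally expressed gene, had ASH2L at its main promoter, together with 448 H3K4me3 tags in 3022 bp. A second start of Zdbf2 in RefSeq, 72907 bp upstream, had a peak in neither list.

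Sequence at the ASH2L summits is shown for the 3 genes where 200 bases around the summit held no UTR in GENCODE or RefSeq, with CG dinucleotides in capitals, on the strand of the gene in GRCm38.p6. They are at chr7:143459818-143460017 on the minus strand in coding sequence of Cdkn1c, at chr12:109453793-109453992 on the plus strand in an intron of Dlk1, and at chr7:128688227-128688426 on the plus strand in an intron of Inpp5f. The numbers of CG were 20, 10 and 16. The stretch of Inpp5f also held 2 ZFP57 hexamers, and the others none. The last sequence is the RefSeq promoter of the upstream start of Zdbf2, the 250 bases at chr1:63200108-63200357 on the plus strand, inside the gene Gpr1, where 13 CG and 3 hexamers went without a peak. Of the 38 genes, 31 matched the RefSeq promoter table, and H19, Cdkn1c, Peg10, Sgce, Rtl1, Impact and Peg13 did not.
Cdkn1c: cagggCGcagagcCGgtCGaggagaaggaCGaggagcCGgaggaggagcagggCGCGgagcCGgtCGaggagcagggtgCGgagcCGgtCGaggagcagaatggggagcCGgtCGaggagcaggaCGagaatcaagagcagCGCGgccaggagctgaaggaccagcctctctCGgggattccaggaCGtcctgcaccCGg
Dlk1: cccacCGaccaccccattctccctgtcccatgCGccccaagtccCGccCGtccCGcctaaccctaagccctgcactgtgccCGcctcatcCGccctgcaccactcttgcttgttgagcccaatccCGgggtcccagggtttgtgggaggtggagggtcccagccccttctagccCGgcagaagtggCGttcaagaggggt
Inpp5f: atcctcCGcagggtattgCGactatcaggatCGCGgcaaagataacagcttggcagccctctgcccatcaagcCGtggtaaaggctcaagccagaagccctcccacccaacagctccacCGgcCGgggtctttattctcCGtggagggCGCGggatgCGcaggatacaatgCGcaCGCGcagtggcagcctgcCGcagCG
Zdbf2 upstream: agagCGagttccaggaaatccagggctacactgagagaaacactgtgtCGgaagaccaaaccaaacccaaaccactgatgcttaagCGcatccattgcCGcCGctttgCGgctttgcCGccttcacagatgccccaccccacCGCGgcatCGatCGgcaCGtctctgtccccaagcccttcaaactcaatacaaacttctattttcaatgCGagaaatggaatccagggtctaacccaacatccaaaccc

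The promoters with H3K4me3 differed from those without in CpG content, as they do in the genome at large. In a window from 250 bases upstream to 50 downstream of the start, the observed to expected CpG ratio had a median of 0.60 in 60 marked promoters and 0.20 in 72 unmarked ones. Over all protein-coding genes, these medians were 0.61 and 0.20. A ratio of 0.6 or more was found in 30 of 60 marked and 4 of 72 unmarked promoters of imprinted genes. The 4 were the main promoter of Plagl1 (0.70), the promoter of Peg13 (0.63) and internal promoters of Ube3a (0.64) and Rian (0.60).

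The ZFP57 hexamer was found in 14 of 60 marked promoters (23.3%) and 4 of 72 unmarked ones (5.56%) of the imprinted genes. The shares over protein-coding genes were 16.3% and 3.66%, and 9.08% of all their promoters held it. In whole H3K4me3 peaks, 26 of 31 held at least 1 hexamer (83.9%), against 63.2% of the peaks of protein-coding genes. A wider peak has more room for a hexamer, and these shares were not matched for width. The median was 0.466 per kb against 0.32. The hexamers were unevenly spread. Their median was 0.903 per kb in 15 peaks of genes with an imprint at a promoter of their own (range 0 to 3.65). It was 0.324 in 11 peaks of genes without one (0 to 1.26) and 0.331 in 5 of the intergenic class (0 to 0.878). The ranges overlap, and the difference was not tested. The peaks here are those with most tags of each gene. In some genes, such as Inpp5f, Gnas, Plagl1 and Grb10, they are not at the promoter known for the imprint. Those of Snrpn, Airn, Nnat and Mest, shown above, were the richest, followed by Impact with 1.78 per kb, whereas those of Plagl1, Slc38a4, Magel2, Peg12 and Rian held none. In the RefSeq promoter table, 9 of 34 windows of imprinted genes with H3K4me3 and 2 of 14 without held the hexamer, against 11.6% of all windows in the table. A match of letters does not show that ZFP57 is bound.

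**Figure D5:**
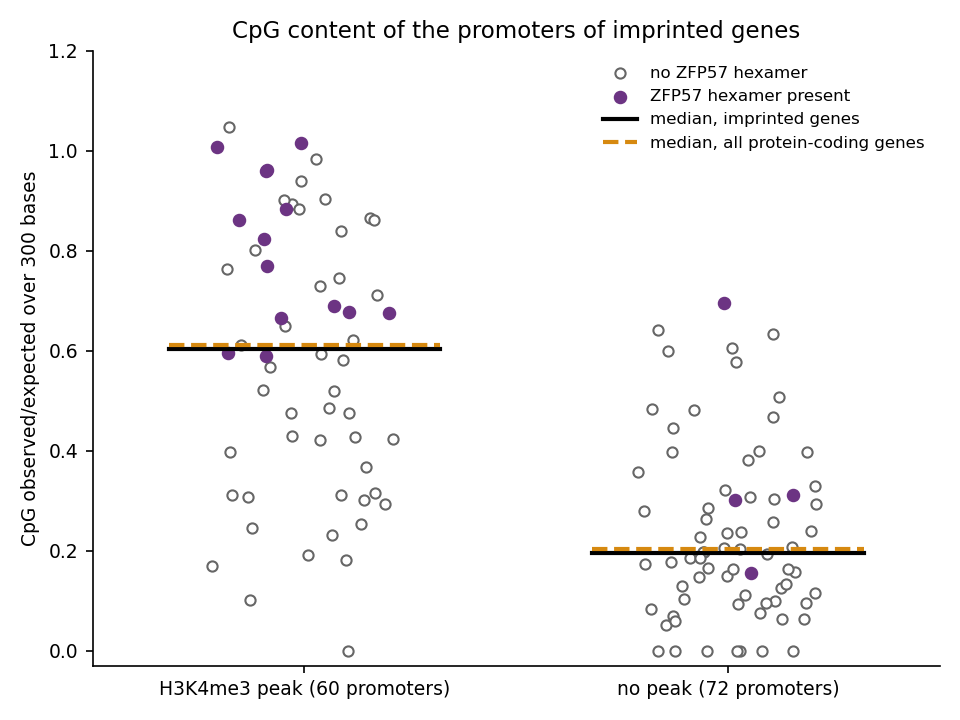
Observed to expected CpG ratio over 300 bases for each promoter of the imprinted genes, with an H3K4me3 peak (60 promoters, left) and without (72, right); filled points hold the ZFP57 hexamer, the black line is the median of the imprinted genes and the dashed orange line that of all protein-coding genes. The medians of the marked and unmarked promoters are 0.60 and 0.20.

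Neighbouring genes of the same clusters, 79 in number, were read for comparison. H3K4me3 was at 62 of them (78.5%, interval 68.2% to 86.1%), and at 56 of 72 protein-coding ones (77.8%, interval 66.9% to 85.8%). Of all protein-coding genes, 68.4% had it, which lies within the latter interval. Neighbours with a peak had a median of 388 tags, 2606 bp and a fold enrichment of 7.06. The 33 listed genes with a peak had 412 tags, 3321 bp and 5.28. This is not a comparison with genes that are not imprinted, since neighbours such as Ascl2, Dio3, Snurf and Nespas are known to be imprinted themselves, and the difference was not tested. Among the neighbours with ASH2L were Copg2 beside Mest, which also had H3K4me3, and Slc38a1 beside Slc38a4, which had no H3K4me3 peak. Listed genes and neighbours shared peaks at Commd1 and Zrsr1, Blcap and Nnat, Gnas and Nespas, Snrpn and Snurf, and Igf2 and Igf2os.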

How the data were processed

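The 38 genes, their classes, the neighbours and the lists were chosen with earlier results of these data known. CUT&RUN data came from mouse E14 cells. According to the methods and the submitters' processing notes, the authors aligned reads to mm10 with Bowtie2, kept short fragments, merged duplicates and called peaks with MACS. The headers name tag sizes of 142 bp for H3K4me3 and 151 bp for ASH2L and MACS 1.4.3 without a control, a p-value cutoff of 1e-05 and a regional background of 10000 bp. The deposited tag counts are raw counts per peak, the deposited fold enrichment is the ratio to the background that the authors' caller modelled, and the deposited score is the negative log10 of the p-value times 10, not normalized between lists.

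Peaks were overlapped with GENCODE vM21 promoters on GRCm38, with the classes of imprint taken from textbook knowledge. The gene lists and their shares are descriptive, with Wilson intervals at 95%. All 38 genes were named, and neighbours where they shared a peak or had ASH2L, except for an item that is not reported here. The code was tested on simulated data. Windows, annotations, thresholds, overlaps and grouping were varied. Tables and figures were made in Python 3.11.15 with pandas 2.3.3 and matplotlib 3.10.9, and sequences were read with pysam 0.24.0 and samtools 1.23.1.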

Additional observations from a re-analysis of the deposited data

How the results depend on the processing

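No paired analysis was possible because the duplicates were merged before the peaks were called, so that the lists hold no values for single samples, and for the same reason no replicate could be left out. With only peaks at or above the median fold enrichment of their list (6.46 for H3K4me3 and 5.37 for ASH2L), H3K4me3 was at 13 of the 38 genes, at 15 of 132 promoters and at 39 neighbours, and ASH2L at 0 of the 38. At that threshold, the shares for protein-coding imprinted genes and all protein-coding genes were 35.5% and 36.4% for H3K4me3, 12.6% and 19.3% for H3K4me3 at single promoters, and 0% and 3.73% for ASH2L (interval of the 0% up to 11%), as read after the data were seen. Wide peaks have low fold enrichment in this list, and Gnas, Mest, Peg3, Meg3 and Kcnq1ot1 were among the 20 genes lost. With scores at or above the list median, ASH2L was at 2 genes, Dlk1 and Zdbf2, or 6.45% of the protein-coding ones against 4.81%, and H3K4me3 was at 83.9% of the protein-coding imprinted genes against 61.6% and at 40.8% of their promoters against 35.7%. Under the other windows, annotations and overlaps, H3K4me3 was at 29 to 35 genes and ASH2L at 4 or 5. A window of 2500 bp on both sides added Ndn and Mirg, and the start base alone lost Rian and Slc38a4. Basic transcripts lost Ddc and Plagl1, and RefSeq transcripts added Ndn and lost Plagl1 and Rian. A required overlap of 0.5 of the window lost Peg12, Plagl1, Slc38a4 and Snrpn. ASH2L at Inpp5f was lost with the start base or the larger overlap, and ASH2L at Cdkn1c with basic or RefSeq transcripts. Across the settings, the median width ranged from 3119 to 3416 bp, the tags from 403 to 425 and the fold enrichment from 4.79 to 5.37. The median CpG ratio was 0.31 over 300 bases and 0.28 over 1100. Peak calls without a control or replicates, and active promoters missing from the list, limit what the absence of a peak can show.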

Other observations

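Another 7 imprinted genes, which were chosen after the data were seen, were read in the same way. H3K4me3 was at 5 of them, beside 68.4% of all protein-coding genes, and ASH2L at 1, beside 7.69%. Sfmbt2, a Polycomb-related gene that is imprinted in the placenta, had the largest peak, with 1000 tags in 6765 bp and a fold enrichment of 3.29. Gab1, an adaptor of growth factor receptors, had 696 tags in 3304 bp and was the only one with ASH2L. Rasgrf1, an exchange factor for Ras, had 358 tags, Smoc1, a matrix protein gene, 277, and Cdh15, a cadherin gene, 136. Nap1l5, a retrogene within Herc3, and Jade1 had no peak.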
